A study of Mus musculus with 18 samples.

Results

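Sox4, Tdrp, Dapl1, Ccr7, Il7r, Cd8a and Cd8b1 are 7 mouse genes used to recognise naive T cells and CD8 T cells. They were taken by name from the deposited tables of differential expression, and all 7 were found among the 2202 genes that at least 1 of the 5 tables listed. The choice was made with their values in these tables known, so the differences described here are the values that chose the genes. They carry no test beyond the p-values that the authors deposited. In T cells from the spleens of Beclin 2 KO mice, 4 of the 7 genes were lower than in wild-type T cells, at 55.6% to 61.3% of the wild-type level. In the tumours of Beclin 2 KO mice, 6 were lower than in wild-type lymph nodes and Il7r was 2.97-fold higher.

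A naive T cell has left the thymus and has not yet met its antigen. It reads signals from the cytokine IL-7 through a receptor whose alpha chain is encoded by Il7r, and these signals keep it alive. CCR7, a chemokine receptor, guides it into lymph nodes along the ligands CCL19 and CCL21, and mouse T cells lose Ccr7 and Il7r transcripts when they become effector cells. Sox4 encodes a transcription factor of the SOX family that is active in lymphocyte progenitors, and Dapl1, named for its likeness to the death-associated protein gene, is a transcript known from naive T cells. Tdrp is named as a testis development related protein, and no role in T cells is given for it here. Cd8a and Cd8b1 encode the alpha and beta chains of the CD8 coreceptor, which binds class I molecules of the major histocompatibility complex. The alpha chain also occurs without the beta chain, on a subset of mouse dendritic cells among others.

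Messenger RNA was enriched with oligo(dT) and sequenced on an Illumina HiSeq from 18 C57BL/6 samples in 9 groups of 2. Of these, 14 samples in 7 groups entered the tables: splenic T cells of Beclin 2 KO and wild-type mice, splenic B cells of Beclin 2 KO and wild-type mice, lymphoma tissue of Beclin 2 KO mice, and lymph nodes of Beclin 2 KO and wild-type mice. Mice that gave T and B cells were 8 weeks old, the labels give no age for the lymph nodes and tumours, and none of these samples was cultured or treated. Macrophage samples in the other 2 groups were not analysed here. The knockout is labelled without a name for its allele, Becn2 itself was listed in no table, and so the tables hold no check of the knockout. Whether both samples of a group are from different animals is not stated in the labels. A p-value weighs the difference between groups against the spread of libraries, and that spread could therefore be technical. A gene was listed in a table only if its adjusted p was under 0.05, and each row gave a mean of normalised reads for either group, a log2 fold change and DESeq p-values. The whole reads of both libraries behind a mean were recovered from its printed digits, and a library is named here by the size factor, the divisor that DESeq set for it. Size factors lay between 0.842 and 1.19, and the total depth of a library is unknown. As only called genes were listed, the markers that would check the labelled cell types had no value where they were not called, which was the case for 20 of 21 genes of the T cell receptor complex and related T cell genes in the T cell table.

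Positions are from GENCODE release M21 on GRCm38, the build named in the submitters' processing notes. Sox4 (ENSMUSG00000076431) is a gene of 1 exon on the minus strand at chr13:28948919-28953713. It overlaps the lincRNA Gm26735 on the opposite strand, and since the strand setting of the counting was not given in the sources used here, reads of the 2 genes cannot be told apart. Tdrp (ENSMUSG00000050052) lies at chr8:13952008-13975032 on the minus strand and Dapl1 (ENSMUSG00000026989) at chr2:59484653-59505020 on the plus strand, each with 5 merged exons. Ccr7 (ENSMUSG00000037944) lies at chr11:99144196-99155077 and Il7r (ENSMUSG00000003882) at chr15:9505788-9530176, both on the minus strand. The CD8 chains are neighbours on the plus strand of chromosome 6, Cd8b1 (ENSMUSG00000053044) at chr6:71322788-71337494 and Cd8a (ENSMUSG00000053977) at chr6:71373427-71379173. The 35932 bases between them hold 4 annotated genes, 0 of them protein coding.

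Promoters of 4 of the 7 genes were matched in RefSeq (GRCm38.p6). The Il7r window is not printed, because its RefSeq start lies 300 bases inside the GENCODE gene. The others are shown, Sox4 and Dapl1 because they were lower in the same 2 comparisons, and Cd8a for the coreceptor, as the 250 bases before the RefSeq start, 5′ to 3′ on the gene's strand. Capitals mark exact matches, on either strand, to 8 motifs: the box bound by TBP, spelled TATAAA, the box bound by NF-Y, spelled CCAAT, the sites of TCF7 and LEF1, spelled CTTTGA, the sites of RUNX factors, spelled TGTGGT, the sites of FOXO factors, spelled TGTTTAC, the sites of ETS factors, spelled AGGAAG, the sites of SP and KLF factors, spelled CCGCCC, and the sites of SOX factors, spelled AACAAT. No match in these windows overlaps another. The windows are chr13:28953700-28953949 on the minus strand for Sox4, chr2:59484403-59484652 on the plus strand for Dapl1 and chr6:71373177-71373426 on the plus strand for Cd8a.
Sox4: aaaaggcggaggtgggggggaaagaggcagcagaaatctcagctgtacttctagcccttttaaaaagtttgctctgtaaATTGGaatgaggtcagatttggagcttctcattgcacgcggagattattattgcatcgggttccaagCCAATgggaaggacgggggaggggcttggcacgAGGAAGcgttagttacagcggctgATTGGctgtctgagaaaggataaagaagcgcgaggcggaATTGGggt
Dapl1: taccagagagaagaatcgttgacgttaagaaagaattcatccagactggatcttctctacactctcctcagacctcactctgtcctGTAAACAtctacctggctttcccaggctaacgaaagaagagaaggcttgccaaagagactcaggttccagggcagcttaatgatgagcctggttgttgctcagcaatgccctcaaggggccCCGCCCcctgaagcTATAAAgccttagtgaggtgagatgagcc
Cd8a: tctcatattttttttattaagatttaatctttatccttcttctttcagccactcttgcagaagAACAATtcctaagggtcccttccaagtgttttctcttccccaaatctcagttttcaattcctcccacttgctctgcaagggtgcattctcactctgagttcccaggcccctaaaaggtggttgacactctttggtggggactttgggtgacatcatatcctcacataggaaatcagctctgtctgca

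The Sox4 promoter held 4 matches to CCAAT and 1 ETS match, and its GC content was 50.8%, against a median of 52.4% over the promoters in the table. Its RefSeq start lies 14 bases inside the GENCODE gene. The CCAAT match 8 to 4 bases before that start is therefore inside the annotated exon. The Dapl1 promoter held TATAAA from 29 to 24 bases before the start, with CCGCCC from 43 to 38 bases before it, and a FOXO match on the opposite strand 164 to 158 bases before it. In Cd8a, with 42.8% GC, the 1 match was AACAAT, 187 to 182 bases before the start. Of 32851 promoter windows of the same length, 12.4% held the TBP motif, 33.8% the NF-Y motif, 3.17% the FOXO motif, 29.5% the ETS motif, 32.7% the SP and KLF motif and 9.42% the SOX motif. The motifs of TCF7 and LEF1 and of RUNX factors, present in 13.8% and 14.0% of windows, were in none of the 4 matched promoters. The Il7r window held 1 match to the NF-Y motif and 1 to the ETS motif, both of which Sox4 also held, and no motif of the 8 searched was in more than 2 of the 4. A match is a match of letters and not a binding site.

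In splenic T cells the question is what the absence of Beclin 2 changed. The authors' deposited table listed 4 of the 7 genes there, 0 higher and 4 lower in KO cells, where 0.676% of the 25015 genes tested were called lower and 2.35% in either direction (1.67% higher). The genes were chosen on this comparison, so nothing is read from that count. Ccr7, Il7r and Cd8a were not called and have no value in T cells. In this order by adjusted p, the 4 listed genes were Sox4, Cd8b1, Tdrp and Dapl1, and their log2 fold changes lay close together, between -0.85 and -0.71.

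Sox4, the SOX transcription factor, had 359 and 300.2 normalised reads in KO T cells, from 385 and 304 reads, against 599.98 and 584 in WT T cells, from 665 and 492 reads. The 2 KO libraries were both below the 2 WT libraries, which lay within a few percent of each other. In the authors' deposited table its means were 329 in KO and 592 in WT T cells, with a log2 fold change of -0.85 and an adjusted p of 0.00624. Of the 4 genes listed in T cells it was the one furthest below wild type, at 55.6% of the WT mean.

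Tdrp had 1101 and 995 normalised reads in KO T cells, against 1929 and 1558 in WT T cells. Both KO libraries lay below both WT libraries, and the WT libraries were further apart than the KO libraries. The authors' deposited table gave means of 1048 in KO and 1743 in WT T cells, a log2 fold change of -0.73 and an adjusted p of 0.0120. Dapl1, known from naive T cells, had 781 and 592 normalised reads in KO T cells, against 1214 and 1025 in WT T cells. The groups again did not overlap, and the higher KO library reached 0.762 of the lower WT library, where the same ratio was 0.614 for Sox4 and 0.707 for Tdrp. Called markers of other cell types in this comparison did not overlap either, such as 7 of 7 plasma cell genes and 9 of 9 macrophage genes. Nothing particular to the 4 genes is therefore read from this. For Dapl1 the authors' deposited table gave means of 686 in KO and 1119 in WT T cells, a log2 fold change of -0.71 and an adjusted p of 0.0418, the largest of the 4.

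Cd8b1, the beta chain of the CD8 coreceptor, had 4745 and 3820 normalised reads in KO T cells. In WT T cells 5 pairs of whole reads give the printed mean equally well, so the WT libraries have no separate values and whether the groups overlap is not known. In the authors' deposited table the means were 4282 in KO and 7028 in WT T cells, with a log2 fold change of -0.71 and an adjusted p of 0.00935. The beta chain is carried by CD8 T cells with few exceptions, and in a bulk sample fewer cells of a type and less RNA per cell cannot be told apart. In all 4 genes the KO library of larger size factor had the higher value.

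**Figure D1:**
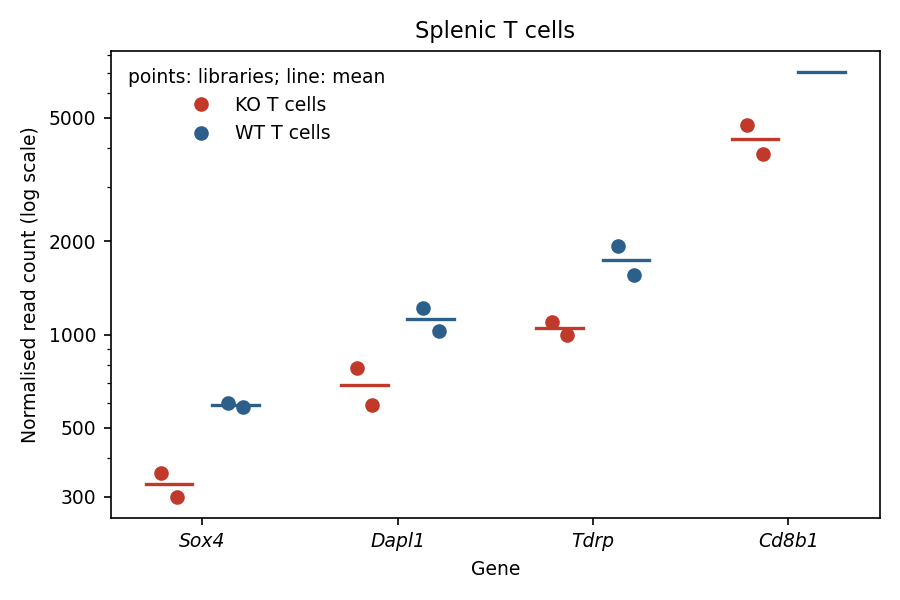
Normalised read counts (log axis) of Sox4, Tdrp, Dapl1 and Cd8b1 in splenic T cells, with KO left of WT; points are recovered libraries, 2 per group, and lines are the authors' means. The points of Sox4, Tdrp and Dapl1 do not overlap between groups, which was also so for called markers of other cell types. WT Cd8b1 has a mean of 7028 and no points.

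Per kilobase of merged exons, which allows roughly for gene length, the order was Cd8b1, Dapl1, Tdrp and Sox4 in both kinds of T cells. The transcripts expressed and the annotation used for counting are not known, so orders and ratios between genes on this scale are approximate. The mean levels were 2888 per kb in KO and 4739 per kb in WT T cells for Cd8b1, and 1010 per kb in KO and 1649 per kb in WT T cells for Dapl1. Tdrp had 223 per kb in KO and 371 per kb in WT T cells, and Sox4 had 68.7 per kb in KO and 123 per kb in WT T cells. Dapl1 had fewer raw reads than Tdrp and stood above it on this scale, since its merged exons span 0.679 kb against 4.695 kb for Tdrp. No neighbours in this order overlapped between their libraries where libraries could be read.

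The other genes of the same families in T cells were counted on lists written with earlier results of these data known. Of 21 genes of naive and central memory T cells, 4 were called and all 4 were lower, where 0.676% of all genes tested were called lower. Their median log2 fold change was -0.79, against 1.14 over all 587 called genes and -1.01 over those called lower. Sox4, Tdrp and Dapl1 are among the 4 and were chosen on this comparison, so nothing is read from the count or the median. The gene beside Sox4, Tdrp and Dapl1 was Id3, an inhibitor of E proteins, with 349 and 210.4 normalised reads in KO T cells, against 857 and 658 in WT T cells. Its log2 fold change in the authors' deposited table was -1.44, with an adjusted p of 0.00256. The other genes of that list, among them Lef1, Tcf7, Klf2 and S1pr1, were not called. Of 12 CD8 lineage genes, 3 were called and all 3 were lower, with Cd8b1 among them also chosen on this comparison. These were Cd8b1, Itgae, the alpha E integrin of tissue-resident T cells, with a log2 fold change of -0.62 in the authors' deposited table, and Xcl1, a chemokine of CD8 T cells and natural killer cells, with -1.20. Of 21 pan-T genes 1 was called, the receptor constant gene Trbc1, with a log2 fold change of -0.59 in the authors' deposited table. Of 11 genes of CD4 and regulatory T cells 1 was called, Tnfrsf4, which encodes OX40, with 0.80 in the authors' deposited table. In the IL-7 receptor pathway 1 of 16 genes was called, the survival gene Bcl2, with means of 3821 in KO and 2491 in WT T cells and an adjusted p of 0.0253 in the authors' deposited table.

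Genes on the checkpoint, follicular helper, effector and memory lists were called mostly in the other direction. Of 13 checkpoint and follicular helper genes, 6 were called and all 6 were higher in KO T cells. The inhibitory receptor gene Lag3 had 821 and 824 normalised reads in KO T cells, against 208 and 250.5 in WT T cells, and its log2 fold change was 1.84 in the authors' deposited table. Tigit, another inhibitory receptor gene, Il21, a cytokine of helper cells, and the transcription factor gene Maf had log2 fold changes of 1.44, 2.32 and 0.99 in the authors' deposited table. Of 21 effector and memory genes 4 were called. In the authors' deposited table Gzmk, Prdm1 and Cx3cr1 were higher by log2 2.93, 1.37 and 1.13. The chemokine receptor gene Cxcr6 was lower there, at -0.90. Prdm1 is also on the plasma cell list. Lag3 and Gzmk were also called higher in KO B cells, at 1.77 and 2.09 in the authors' deposited table. Which cells carried these transcripts was not tested. Of 11 progenitor genes, Sox4 and Dntt were called, and Dntt, the terminal transferase of receptor rearrangement, was lower with 66.1 and 74.1 normalised reads in KO T cells, against 207 and 170 in WT T cells.

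Markers of other cell types moved in the same libraries. Of 11 plasma cell genes 7 were called and all were higher, with summed normalised reads of 12150 and 11871 in KO T cells, against 3292 and 4713 in WT T cells; Derl3, Sdc1, Xbp1 and Txndc5 had the smallest adjusted p. Of 16 monocyte and macrophage genes 9 were called, all higher, with sums of 13824 and 17083 in KO T cells, against 3409 and 7516 in WT T cells, led by Fcgr4, Cd5l, Siglec1 and Cd68. Of 12 neutrophil genes 5 were called, all higher, with sums of 1599 and 1062 in KO T cells, against 151 and 247 in WT T cells, led by Elane, Ngp, Mpo and S100a9. Natural killer genes went the other way: 3 of 15 were called, Klra7, Klrd1 and Klra1, with sums of 860 and 856 in KO T cells, against 1768 and 1794 in WT T cells. None of these called markers was at 0 in any group. None of 12 B cell genes was called by DESeq in the authors' deposited table; a count at an unadjusted p under 0.05 cannot be given, since the table lists called genes alone. The part of these other cells in the lower values of Sox4, Tdrp, Dapl1 and Cd8b1 was not tested.

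**Figure D2:**
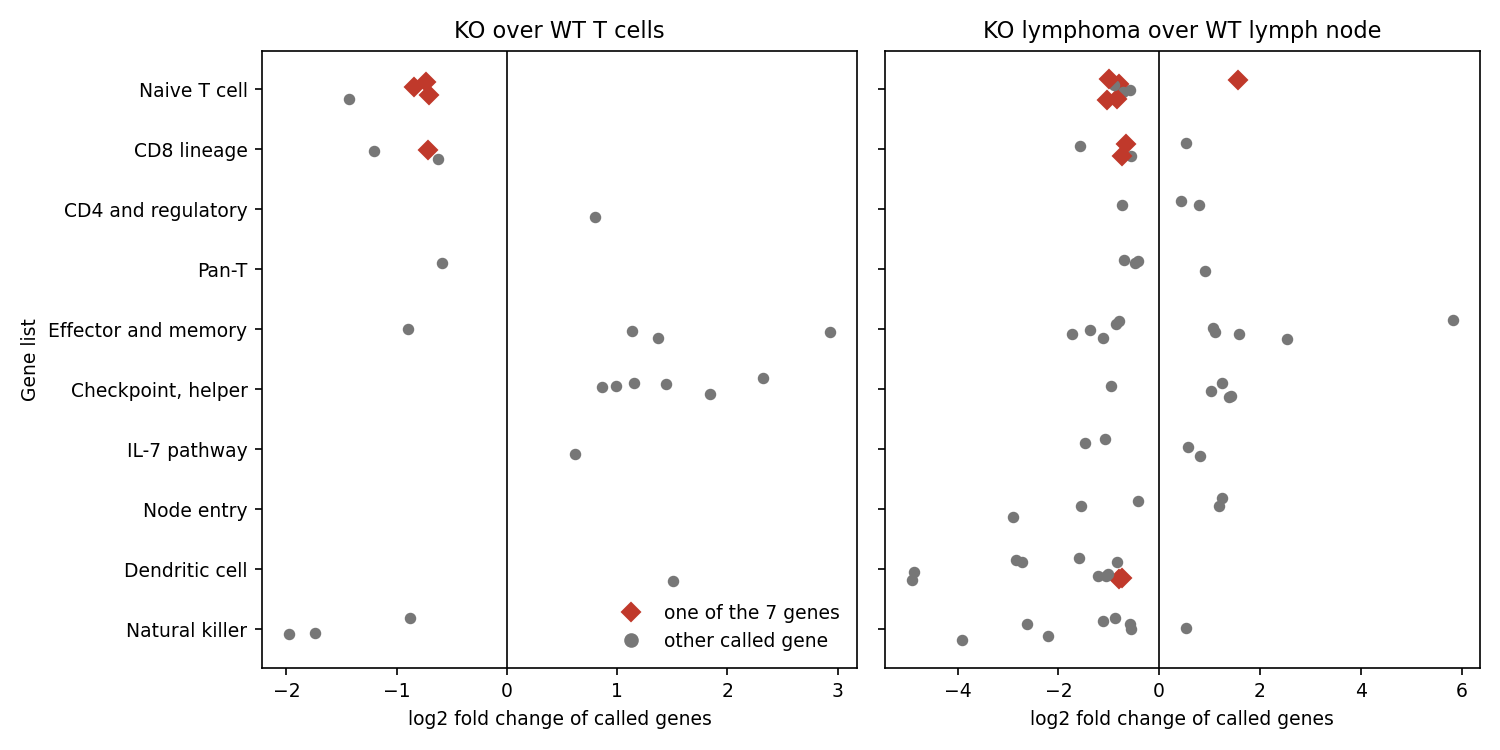
Log2 fold changes of the called genes of each gene list, KO over WT in T cells and tumour over wild-type lymph node; each point is 1 gene and the line at 0 marks equal means. In T cells the called naive (4) and CD8 lineage (3) genes lie below 0. They include Sox4, Tdrp, Dapl1 and Cd8b1, which were chosen on this comparison. The called checkpoint genes (6) lie above it.

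The tumours were set against the lymph nodes of wild-type mice in 1 table and against those of KO mice in another. In the first, the authors' deposited table listed all 7 genes, 1 higher and 6 lower in the tumours, where 3.34% of the 22086 genes tested were called higher, 4.04% lower and 7.38% in either direction. Nothing is read from this count either, as the genes were chosen on it. The 6 lower genes had log2 fold changes between -1.04 and -0.65. The libraries of tumour and wild-type node overlapped for none of the 7 genes. This was also so for called genes of lists that hold none of the 7, such as 9 of 9 plasma cell and 8 of 8 natural killer genes. Nothing particular to the 7 genes is therefore read from it.

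Ccr7, the receptor for node entry, had 3446 and 2910 normalised reads in the tumours, against 5620 and 5431 in WT lymph nodes. Both tumour libraries stood well below both node libraries. Its log2 fold change was -0.80 and its adjusted p 1.78e-08 in the authors' deposited table, the smallest adjusted p of the 7. Il7r, the alpha chain of the IL-7 receptor, had 7658 and 9815 normalised reads in the tumours, from 8294 and 10279 reads, against 2746 and 3133 in WT lymph nodes, from 2670 and 2894 reads. It was the 1 gene of the 7 that was higher in the tumours, and the lower tumour library still held more than the higher node library. In the authors' deposited table the means of Il7r were 8736 in the tumours and 2940 in WT lymph nodes, with a log2 fold change of 1.57 and an adjusted p of 1.44e-06.

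Per kb, the ratio of Il7r to Ccr7 was 0.943 and 1.43 in the tumours, against 0.207 and 0.245 in WT lymph nodes. Il7r was called higher and Ccr7 lower here, so a gap between these ratios follows from the fold changes that chose the genes. Ccr7 had the higher level per kb in both node libraries and in 1 tumour library, and Il7r had the higher level in the other tumour library.

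Cd8a had 2827 and 3109 normalised reads in the tumours, against 4632 and 5272 in WT lymph nodes. Cd8b1 had 2130 and 2079 in the tumours, against 2941 and 3669 in WT lymph nodes. Both chains of the coreceptor were lower in both tumour libraries. Their log2 fold changes in the authors' deposited table were -0.74 for Cd8a, with an adjusted p of 8.3e-07, and -0.65 for Cd8b1, with an adjusted p of 0.0182. Per kb, the ratio of Cd8a to Cd8b1 was 0.541 and 0.610 in the tumours, against 0.642 and 0.586 in WT lymph nodes, so the ranges of the chains' ratio overlapped. Cd4, which marks the other main T cell class, was higher in the tumours, with 4826 and 4895 normalised reads against 3360 and 3887 in WT lymph nodes. The ratio of Cd8a to Cd4 in normalised reads was 0.586 and 0.635 in the tumours, against 1.38 and 1.36 in WT lymph nodes. Cd8a was chosen as lower here, and Cd4 has a value only because it was called, so nothing is read from the gap between these ratios.

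Tdrp had 459 and 469 normalised reads in the tumours, against 788 and 866 in WT lymph nodes. Dapl1 had 231 and 182 in the tumours, against 363 and 485 in WT lymph nodes. Sox4 had 252 and 154 in the tumours, against 395 and 415 in WT lymph nodes. The 2 tumour libraries agreed closely for Tdrp and stood 1.64-fold apart for Sox4, the widest pair among the 7 genes. In the authors' deposited table the log2 fold changes were -0.83 for Tdrp, -1.04 for Dapl1 and -0.997 for Sox4, with adjusted p of 0.000584, 0.0152 and 0.00341.

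**Figure D3:**
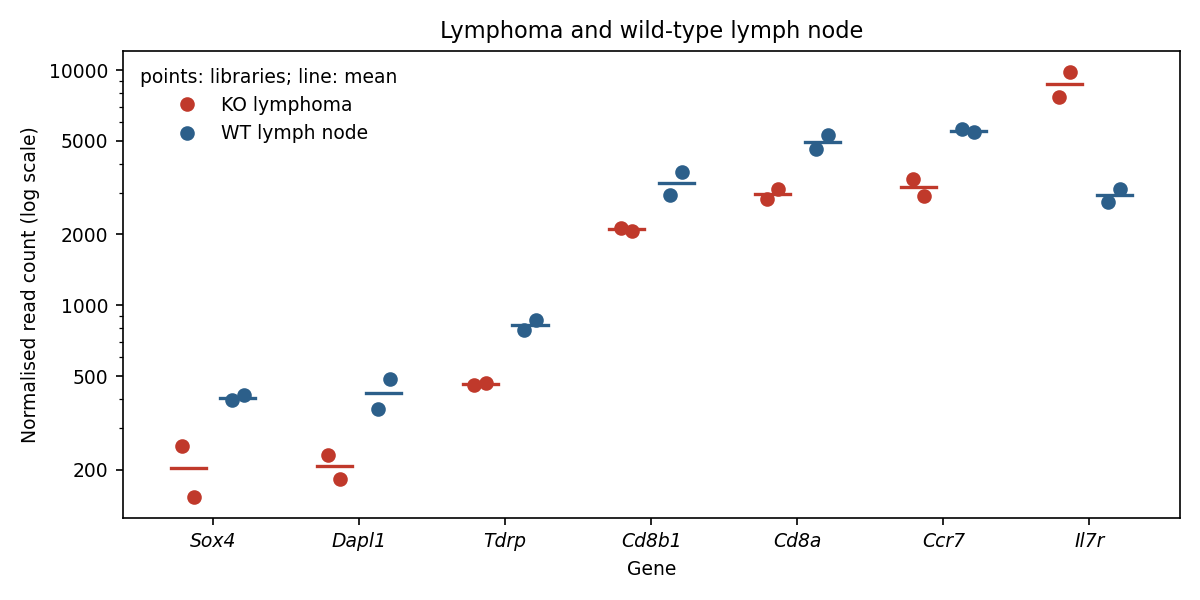
Normalised read counts (log axis) of the 7 genes in KO tumours, left, and wild-type lymph nodes, right; points are recovered libraries, 2 per group, and lines are the authors' means. Il7r lies higher in the tumours (8736 against 2940), and the other 6 genes lie lower.

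In the tumours the mean levels per kb ran from Il7r with 1873 through Ccr7 with 1607, Cd8b1 with 1419, Cd8a with 816, Dapl1 with 304 and Tdrp with 98.8 to Sox4 with 42.3. In WT lymph nodes they ran from Ccr7 with 2794 through Cd8b1 with 2229, Cd8a with 1362, Il7r with 630, Dapl1 with 625 and Tdrp with 176 to Sox4 with 84.4. Il7r thus stood at the top in the tumours and below Ccr7 and both CD8 chains in the nodes, and the other 6 kept their order. The libraries of Il7r and Ccr7 overlapped in the tumours, as did those of Il7r and Dapl1 in the nodes; all other neighbours were apart.

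**Figure D4:**
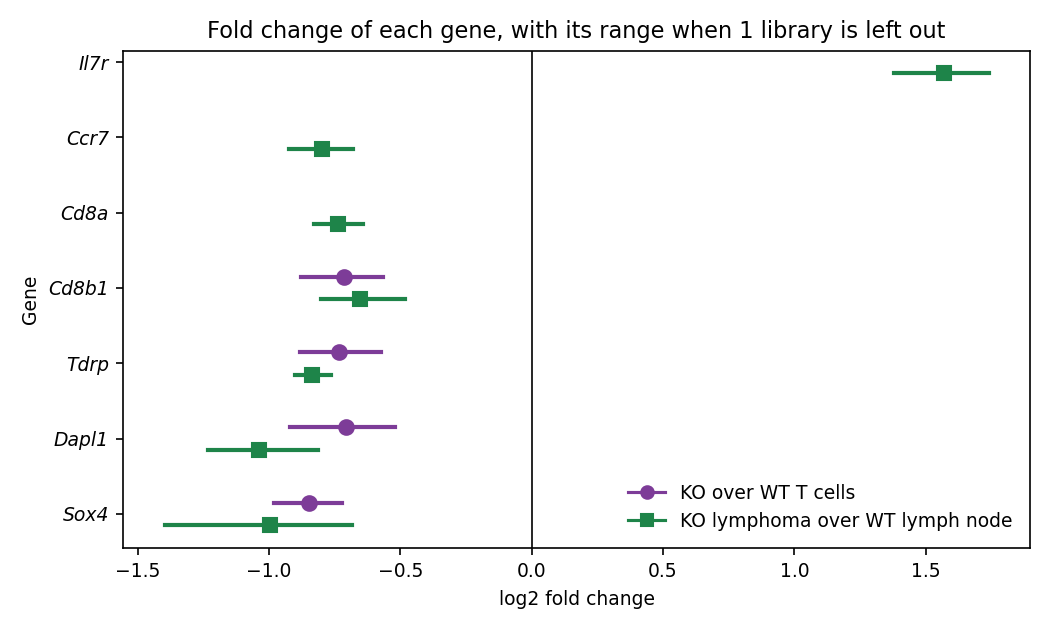
Log2 fold changes of the 7 genes, KO over WT in T cells and tumour over wild-type lymph node; marks are the ratios of the authors' means, and bars give the range when 1 recovered library is left out. All lie below 0 apart from Il7r, at 1.57 in the tumours. For Cd8b1 in T cells only KO libraries could be left out.

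Of the 21 naive and central memory genes, 10 were called in this comparison, 1 higher (Il7r) and 9 lower. Their median log2 fold change was -0.82, against -0.45 over all 1630 called genes and -0.87 over those called lower. Il7r, Dapl1, Ccr7, Tdrp and Sox4 are among the 10 and were chosen on this comparison, so nothing is read from the count or the median. Beside the 7 genes' own, the called genes were Klf2 and Foxo1, transcription factors of T cell quiescence and homing, Id3, Nsg2 and Actn1. Their log2 fold changes in the authors' deposited table were -0.90 for Klf2, -0.71 for Foxo1, -0.80 for Id3, -0.86 for Nsg2 and -0.59 for Actn1. Klf2 had 4034 and 3066 normalised reads in the tumours, against 6273 and 6958 in WT lymph nodes. Of 12 CD8 lineage genes 6 were called, 5 of them lower, with Cd8a and Cd8b1 among these chosen on this comparison. Beside the CD8 chains these were Itgae at -1.57, the protease gene Ctsw at -0.75 and the granule gene Nkg7 at -0.55, while Eomes, a transcription factor of memory CD8 T cells, was at 0.53 in the authors' deposited table.

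Of 11 genes of CD4 and regulatory T cells 3 were called, with log2 fold changes in the authors' deposited table of 0.42 for Cd4, 0.79 for the transcription factor gene Ikzf2 and -0.73 for the IL-2 receptor gene Il2ra. Of 21 pan-T genes 4 were called: the costimulatory receptor gene Cd28 was higher, at 0.91, and Trac, Thy1 and the kinase gene Lck were lower, at -0.71, -0.49 and -0.41, in the authors' deposited table. The other 17 pan-T genes were not called and have no value. Among 21 effector and memory genes 5 were called higher and 5 lower, with Gzmk at 5.82, Prdm1 at 1.59, Id2 at -1.37 and Cxcr6 at -1.73 of smallest adjusted p in the authors' deposited table. Of the 13 checkpoint and follicular helper genes, 5 were called: 4 were higher, Pdcd1, Tigit and Slamf6 of smallest adjusted p at 1.42, 1.24 and 1.02, and Bcl6 was lower at -0.95, in the authors' deposited table.

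Among the partners of CCR7 and of the IL-7 receptor the picture was mixed. The ligand genes Ccl19 and Ccl21a were not called. Of 15 genes of CCR7 ligands and node entry, 5 were called, 2 higher and 3 lower. The chemokine receptor gene Cxcr4 and the chemokine scavenger gene Ackr2 were higher, at log2 1.19 and 1.24, and Madcam1, the vessel ligand of the integrin that Itgb7 helps to form, and Itgb7 were lower, at -2.91 and -0.43, in the authors' deposited table. Il7 and the receptor's partner genes Il2rg, Jak1 and Jak3 were not called. Of the 16 pathway genes 4 were called: the feedback inhibitor genes Socs2 and Socs1 were lower, at -1.46 and -1.08, and Socs3 and the death gene Bcl2l11 were higher, at 0.82 and 0.58, in the authors' deposited table. Socs2 had 277 and 320 normalised reads in the tumours, against 847 and 797 in WT lymph nodes, with no overlap. On the ligand side of CD8, 1 of 13 class I genes was called, H2-Q6, at 0.48 in the authors' deposited table.

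Markers of other cells differed in these tissues too. Of 13 dendritic cell genes, a list that holds Ccr7 and Cd8a, 11 were called and all 11 were lower. Their summed normalised reads were 9662 and 8418 in the tumours, against 27366 and 25906 in WT lymph nodes. These sums include Ccr7, with 3446 and 2910 against 5620 and 5431, and Cd8a, with 2827 and 3109 against 4632 and 5272. Both were chosen with their lower values in this comparison known. Fscn1, Siglech, Ccl22 and Cd209a had log2 fold changes of -2.73, -2.85, -4.86 and -4.91 in the authors' deposited table. Of 10 innate lymphoid genes, a list that holds Il7r, 6 were called and Il7r was the 1 that was higher. Natural killer genes were called in 8 of 15 cases, 7 of them lower, with sums of 3008 and 3074 in the tumours, against 4250 and 4396 in WT lymph nodes. Plasma cell genes were called in 9 of 11 cases, all higher, with sums of 28092 and 28988 in the tumours, against 12944 and 12645 in WT lymph nodes. Among 13 stromal and endothelial genes 5 were called, all lower, with sums of 8833 and 7240 in the tumours, against 14930 and 14943 in WT lymph nodes. The B cell list of 12 genes had 5 called entries, 4 lower and 1 higher, and Cr2 accounts for 2 of them as it is listed under 2 identifiers. Of 11 progenitor genes, a list that holds Il7r and Sox4, 5 were called: Il7r was higher, and Sox4, Flt3, Kit and Vpreb3 were lower, the last 3 at -1.21, -1.16 and -1.20 in the authors' deposited table. Of 16 monocyte and macrophage genes 3 were called, with Fcgr4 higher at 3.36 and Marco and Itgam lower at -3.02 and -0.62 in the authors' deposited table. Of 12 neutrophil genes 1 was called, Mmp9, which was lower at -2.74 in the authors' deposited table.

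Transcripts of salivary gland also stood in these libraries: 7 of 11 such genes were called and all were higher, with sums of 234186 and 576273 normalised reads in the tumours, against 11233 and 30131 in WT lymph nodes. The tumour library with the larger salivary sum had the higher Il7r, Cd8a and Tdrp and the lower Ccr7, Sox4, Dapl1 and Cd8b1. With 2 tumour libraries such a split arises for any gene, so nothing is read from it. No called marker of these lists was at 0 in either group, and the part of other cells and of salivary tissue in the values of the 7 genes was not tested.

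None of the 7 genes was called in the other 3 comparisons. The share of genes called by the authors' DESeq test was 1.24% of 23957 in B cells of KO against WT mice, 0.475% of 22105 in lymph nodes of KO against WT mice, and 1.77% of 23565 in KO tumours against KO lymph nodes. These tables list called genes alone, so the levels of the 7 genes there, and a count at an unadjusted p, cannot be given. The tumour libraries are the same in both tumour comparisons. All 7 genes passed against wild-type nodes and 0 passed against KO nodes, and a difference between those comparisons was not tested.

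The T cell table and the table of tumours against wild-type nodes share no samples. Of the 7 genes, Sox4, Tdrp, Dapl1 and Cd8b1 stood in both tables, lower each time, but they were chosen with these values known. Of 245 genes listed in both, 60 were lower in both, which is 35.5% of the 169 genes lower in KO T cells and 6.73% of the 892 gene names lower in the tumours. A further 144 were higher in both, 11 were lower in T cells and higher in the tumours, and 30 were the reverse.

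The genes with log2 fold changes most like those of the 4 were sought by Euclidean distance over the 2 tables among 162 candidates with a mean of at least 50 in 1 group. Those of Tdrp were closest to Hpcal1, at a distance of 0.0157, then Dusp6 at 0.113 and Ide at 0.157. Sox4 and Dapl1 were each other's closest gene, at 0.145. Sox4 was followed by Esd at 0.162 and Ide at 0.180, and Dapl1 by Tdrp at 0.205 and Hpcal1 at 0.211. For Cd8b1 they were Dusp6 at 0.0711, Klf6 at 0.104 and Cd96 at 0.128. These distances rest on 2 fold changes per gene and describe likeness of fold changes, not of levels.

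**Figure D5:**
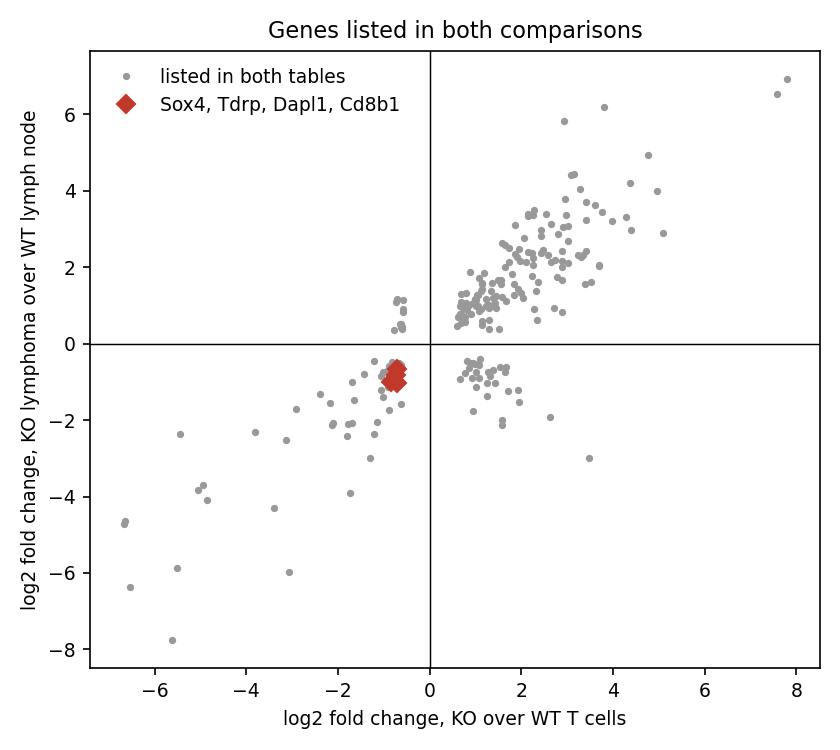
Log2 fold change in T cells, KO over WT (horizontal axis), and in tumour over wild-type lymph node (vertical axis) for genes listed in both tables with finite fold changes; named points are Sox4, Tdrp, Dapl1 and Cd8b1. All 4 were chosen with these values known and lie at the lower left, where both fold changes are below 0.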

How the data were processed

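The signal values are normalised read counts, deposited by the authors as 1 mean per group over 2 libraries, so the means carry no SD. The log2 fold change and the p-value were deposited by the authors from DESeq, with the tested group over the group it is set against. A few fold-change cells in the B and T cell tables hold spreadsheet errors, a form of value recorded as other; the deposited means were used instead. CASAVA 1.8, DESeq without a version and the build GRCm38 (mm10) are named in the submitters' processing notes. Aligner, counting tool, strand handling and annotation version are not given in the sources used here.

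Whole reads per library were recovered in Python 3.11.15 with numpy 2.4.6 by finding, for each group, the 2 step sizes that write every printed mean as whole reads; the method was tested on simulated data. For groups that stand in 2 tables, 430 of 430 genes gave the same reads. In T cells reads were solved for 578 (KO) and 512 (WT) of 587 genes. Recovered libraries have no replicate number and entered no test; with 2 against 2, the smallest two-sided exact permutation p is 0.333. The number of genes tested came from the relation of p, rank and Benjamini-Hochberg adjusted p. Calls are the authors' at an adjusted p under 0.05. The 7 genes and the 19 gene lists were chosen with earlier results of these data known. Named genes were the 7, every called pan-T, naive, CD8 and CD4 gene in tables that list a member, up to 4 called genes of smallest adjusted p from lists with at least 3 called, and the 3 nearest genes by fold change; further called genes were chosen after their values were seen. Alternatives were an adjusted p under 0.01, a fold of at least 2, a mean of at least 50, 1 or 10 added to the means, scaling on pan-T genes and leaving out each library.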

Additional observations from a re-analysis of the deposited data

How the results depend on the processing

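At an adjusted p under 0.01, 2 of the 4 genes called in T cells passed (Sox4 and Cd8b1), and 5 of the 7 in tumours against wild-type lymph nodes. At a fold of at least 2, 0 passed in T cells and 2 in the tumours (Il7r and Dapl1), and called list genes numbered 9 against 14 in KO against WT lymph nodes and 58 against 96 in tumours against wild-type nodes. Requiring a mean of at least 50 changed no count of the 7 genes. Adding 1 or 10 to both means left all 22 log2 fold changes within the spread between libraries. Leaving out 1 library at a time gave 42 values, all in the same direction, and 4 of them moved beyond the spread between libraries. Where groups do not overlap, leaving out 1 library cannot reverse the direction, so nothing is read from that agreement. For Cd8b1 in T cells only the 2 KO libraries could be left out. The widest range was -1.40 to -0.68 for Sox4 in the tumours and the narrowest -0.90 to -0.76 for Tdrp there. Fold changes were also taken relative to the median of the called pan-T genes, which subtracts the same value from all genes of a comparison. No fold change reversed, but all 11 moved. Pan-T genes that were not called have no value, so this scale rests on called genes alone. It is no measure of T cell content. In T cells that scale rests on Trbc1 alone, and the log2 fold changes became -0.26 for Sox4, -0.15 for Tdrp, -0.13 for Cd8b1 and -0.12 for Dapl1. In the tumours it rests on 4 genes, and Il7r became 2.02, Dapl1 -0.59 and Sox4 -0.55. The other genes were closer to equal means there, with Tdrp at -0.38, Ccr7 at -0.35, Cd8a at -0.29 and Cd8b1 at -0.20. The cause was not tested. No paired analysis was possible because the tables hold group means and the recovered libraries carry no replicate number. Depth per library is unknown, and a gene not listed has no value.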

Other observations

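Of the 3 comparisons that listed none of the 7 genes, KO against WT lymph nodes also had no called gene on several T cell lists. These were the naive, CD8, CD4, pan-T, effector and checkpoint lists. Only 0.475% of all genes tested were called there, so nothing is read from this absence. Related T cell genes were called in B cells and in KO tumours against KO lymph nodes, where 1.24% and 1.77% of genes were called. In splenic B cells of Beclin 2 KO mice, Klf2, a transcription factor of lymphocyte homing, had a mean of 9476 against 20998 in wild-type B cells, with a log2 fold change of -1.15 in the authors' deposited table. There the CD8 lineage genes Xcl1, Ctsw and Eomes, which natural killer cells also express, were lower at -1.45, -0.93 and -1.27 in the authors' deposited table, beside 14 of 15 natural killer genes that were lower. Among 21 effector and memory genes, B cells had 7 called genes, of which 6 were lower. Gzmk was higher at 2.09, and the lower genes of smallest adjusted p were Gzma, Prf1 and Ccl3, at -1.96, -1.14 and -1.05 in the authors' deposited table. The checkpoint gene Lag3 was higher, at 1.77 in the authors' deposited table.

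In KO tumours against KO lymph nodes, 1 of 21 naive and central memory genes was called, Igfbp4, with 4503 and 2943 normalised reads in the tumours, against 6611 and 7522 in KO lymph nodes. Of the CD8 lineage genes, Itgae was lower at -1.23 and Eomes higher at 0.98, and the inhibitory receptor genes Pdcd1 and Tigit were higher at 1.19 and 1.34 in the authors' deposited table. Of 21 effector and memory genes 5 were called, with Gzmk, Prdm1 and Cxcr3 higher at 2.80, 1.36 and 0.997 and Id2 and Cxcr6 lower at -1.49 and -1.35 in the authors' deposited table. The node entry genes Ackr4, a scavenger receptor for the ligands of CCR7, and Chst4 were lower at -2.38 and -1.86 in the authors' deposited table. In the same libraries 6 of 13 stromal and endothelial genes and 3 of 13 dendritic cell genes were called, all lower, with median log2 fold changes of -1.34 and -3.47, and 7 of 11 salivary gland genes were called, all higher, with a median of 6.41. Summed normalised reads of the stromal list were 10344 and 8445 in the tumours, against 20433 and 23505 in KO lymph nodes. Those of the dendritic cell list were 2143 and 1259 in the tumours, against 7390 and 10989 in KO lymph nodes, and those of the salivary list were 241409 and 595712 in the tumours, against 7594 and 425 in KO lymph nodes. Their part in the values of the T cell genes was not tested.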
